A study of Aspergillus nidulans with 8 samples.

Results

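The velvet family and the regulators of sexual development of Aspergillus nidulans were followed on 8 single-colour Agilent arrays. The group was set by gene identifier and holds 10 of the 10550 genes on the array: the velvet genes veA (ANID_01052), velB (ANID_00363), vosA (ANID_01959) and velC (ANID_02059), the methyltransferase gene laeA (ANID_00807), the sexual development genes nsdD (ANID_03152), esdC (ANID_09121) and steA (ANID_02290), and the mating-type genes MAT1 (ANID_02755) and MAT2 (ANID_04734). The rule itself uses no measured value, although the group was proposed with earlier results of these data known. The arrays held RNA from lyophilised mycelium of submerged shaken cultures that were stressed for 0.5 h at an age of 16 h. The stresses were amphotericin B (AmB, a polyene that binds membrane ergosterol) at 2 mM, the heavy metal salt CdCl2 at 0.2 mM and the dye Congo Red, which binds cell wall glucan and chitin, at 10 mM, and untreated cultures were the controls. The doses are printed as the labels give them, with units that no other source here could check.

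There were 2 strain labels. The reference strain has the genotype pyrG89, AfupyrG+; pyroA+; veA+, and the delta-atfA mutant the genotype pyrG89, AfupyrG+; pyroA4; DatfA::pyroA; veA+. Both carry the intact veA allele and the pyrG89 mutation complemented with AfupyrG, and they differ in atfA, which encodes a stress bZIP transcription factor, and in the pyroA marker. Each of the 8 combinations of strain label and condition had 1 array with RNA pooled from 3 cultures, so nothing was replicated and the small number of arrays sets the limit on precision.

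The strain labels went against the deleted gene. On the 4 arrays labelled reference the atfA probe was at background (processed signal 2.30 to 3.09), and on the 4 labelled deletion it was bright (3271 to 9708). The authors' value table, deposited beside the scanner files, has atfA the other way round, at log2 13.66 to 14.60 in its reference columns and 6.19 to 6.26 in its deletion columns. After centring each of the 7105 genes detected on all 8 arrays, each table column followed a single array, at Pearson's r of 0.977 to 0.989 across genes, and that array always had the other strain label. For 2 of these pairs the treatment labels differed too: the array labelled deletion and untreated followed the table's column for reference and CdCl2, and the array labelled deletion and CdCl2 followed that for reference and untreated. The arrays are therefore called "labelled reference" and "labelled deletion" throughout, and differences within the deletion label that rest on its untreated or CdCl2 array are also given with these 2 labels exchanged, as the table has them.

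Velvet proteins are fungal transcription regulators that share a DNA-binding velvet domain. In A. nidulans, VeA enters the nucleus mainly in the dark, where it joins VelB and the methyltransferase LaeA in a complex that couples sexual development to secondary metabolism. VelB also pairs with VosA, which acts in spore maturation and viability. The fungus is self-fertile and carries both mating-type genes in 1 genome.

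Of the 10 members, 7 were well above background on all 8 arrays: veA, velB, velC, laeA, nsdD, esdC and steA. MAT2 passed on 3 arrays, both AmB arrays and the CdCl2 array labelled deletion. The probes of vosA and MAT1 passed on none, so these genes have only upper bounds here and were not tested. On the log2 scale relative to each array's 75th percentile, the range over the 8 arrays had a median of 1.51 over the 7105 genes detected on all of them. It was below that median for 5 of the 7 members: steA 0.70, laeA 0.87, veA 0.98, velB 1.26 and nsdD 1.34. It was above it for velC, at 1.95, and for esdC, at 2.29, a 4.89-fold range.

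**Figure D1:**
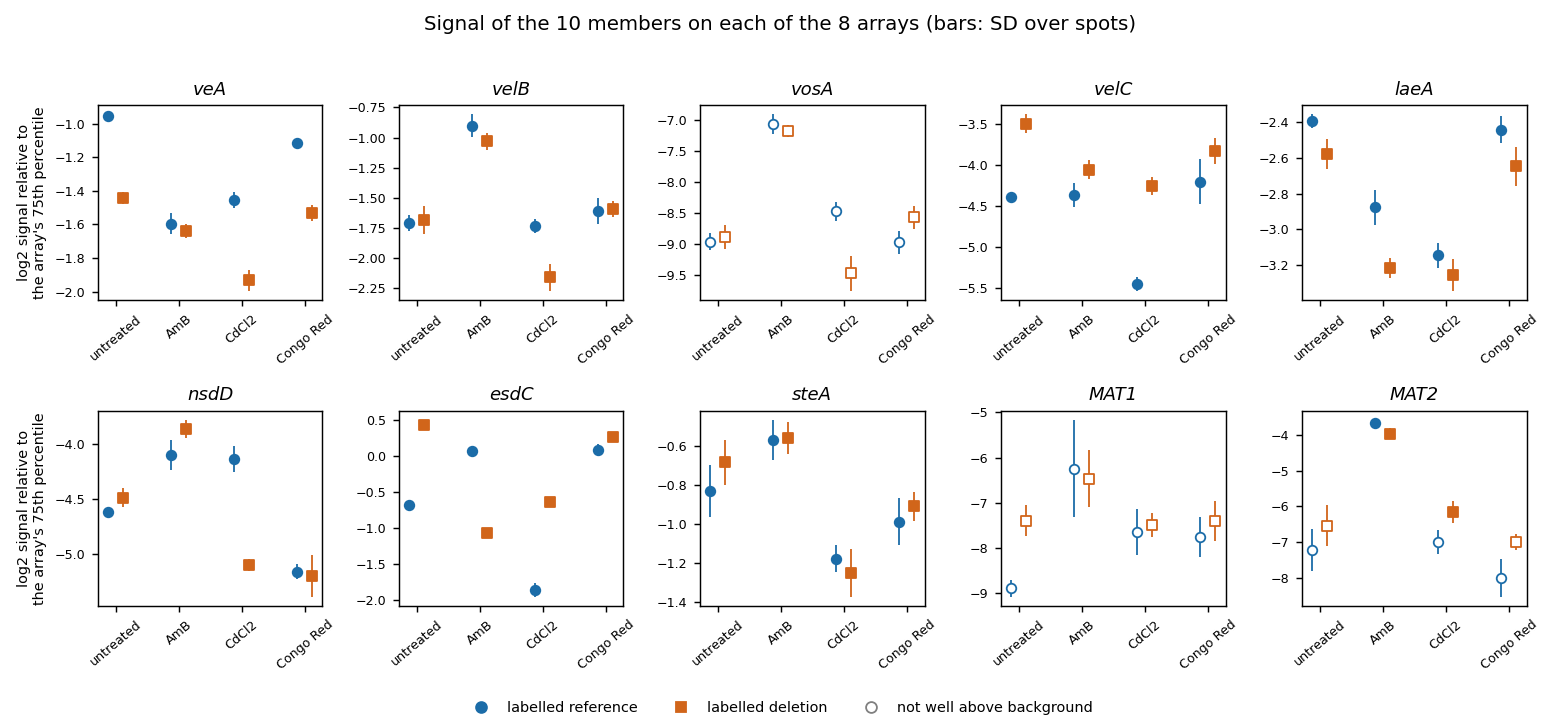
Signal of each member on each array, as log2 relative to the 75th percentile of its array (vertical axis), by condition (horizontal axis) and strain label (circles labelled reference, squares labelled deletion). Each point is the mean of the gene's spots and the bars are the SD over spots; open symbols are not well above background, as for vosA and MAT1 on all arrays. The MAT2 points are highest on both AmB arrays, and the esdC points of the labels lie in opposite order under AmB and in untreated cultures.

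AmB was the condition with the largest change of any member. MAT2, which encodes the HMG-box mating-type protein, was higher on both AmB arrays than on the other 6. Its processed signals under the reference label were 9.13 untreated, 26.5 with AmB, 9.29 with CdCl2 and 5.06 with Congo Red. Under the deletion label they were 15.6, 16.8, 26.5 and 8.25 in the same order. The unscaled signals thus overlapped, since the CdCl2 array labelled deletion was as bright as the brighter AmB array. The AmB arrays were dimmer as a whole, with 75th percentiles of the processed signal of 336 and 262 against 1058 to 1881 on the others. Relative to those percentiles MAT2 lay at -3.66 and -3.97 on the log2 scale under AmB and at -8.00 to -6.15 elsewhere. It was not well above background on either untreated array. By this scaling its level under AmB was at least 8.39-fold higher, a fitted 3.07 on the log2 scale (limma, adjusted p = 0.0228). The bound holds for this scaling alone. By the same scaling the probes of vosA and MAT1, below background on all arrays, also lay higher with AmB. The vosA differences were 1.90 and 1.71 under the reference and deletion labels, and those of MAT1 2.64 and 0.93. The fitted MAT2 value was lower by other scalings, at 2.73 with normexp background correction and 2.33 with quantile normalization. With normexp the vosA probe went from -4.57 untreated to -1.14 with AmB under the reference label. Under the deletion label it went from -4.63 to -2.46. MAT2 went from -4.33 to -1.03 and from -4.24 to -2.07. Its normexp value thus does not set it apart from a probe below background. By the 75th percentile scaling the MAT2 bound was 11.8-fold under the reference label and 5.94-fold under the deletion label. The second of these depends on the disputed labels. After the exchange MAT2 is above background on the untreated array labelled deletion, its difference there is 2.18 on the log2 scale, and the fitted value is 2.87 (adjusted p = 0.0272).

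MAT2 was the 1 member of the 8 tested that passed for AmB, where 11.8% of the 8633 genes tested passed, 8.64% higher and 3.15% lower. Without its AmB arrays MAT2 would not have been tested, so the filter and the call rest on the same values. In the value table the call was lost: its AmB values were 7.80 and 7.81 against 6.48 to 7.02 in the other columns, a fitted rise of 0.93 ± 0.25 (SE) on the log2 scale with an adjusted p of 0.0706 in limma. Without the untreated array labelled reference the adjusted p was 0.113, at 2.86 ± 0.68.

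Both AmB arrays also lay above the other 6 for velB, nsdD and steA. With MAT2 these made 4 of the 8 members tested, against 21% of all genes. MAT2 was among the 8 only through its AmB arrays, so it adds no independent case. The gap to the next array was smaller than the SD between spots for nsdD, and about as large for steA. The AmB arrays lay below the other 6 for none of the 8, against 22.5% of all genes. These counts moved with the scaling. With normexp background correction 6 members were higher (velB, velC, laeA, nsdD, steA and MAT2) and 0 lower, against 47.5% and 12.7% of all genes. Of these, velC, nsdD and MAT2 lay on the AmB arrays near the level of the vosA probe, which was below background. With quantile normalization velB, steA and MAT2 were higher and laeA was lower, against 16.1% and 29.7%. The value table placed these 4 genes likewise, against 15.6% and 30%.

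VelB is a partner of VeA. Scaled log2 levels of velB were -1.71 untreated, -0.90 with AmB, -1.73 with CdCl2 and -1.61 with Congo Red under the reference label, and -1.68, -1.03, -2.16 and -1.59 under the deletion label. The AmB levels were the highest under both labels, by 0.81 and 0.65 over the untreated array (1.13 for the latter after the exchange). The fitted value of 0.73 ± 0.30 had an adjusted p of 0.161 and did not pass. It passed with normexp background correction (0.94, adjusted p = 0.0447), where the median of all genes was 0.69. It also passed with the untreated and CdCl2 arrays pooled as the baseline (0.85, adjusted p = 0.0364).

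For veA the levels under the reference label were -0.96, -1.60, -1.46 and -1.11, and under the deletion label -1.44, -1.64, -1.93 and -1.53, in the order untreated, AmB, CdCl2 and Congo Red. The array labelled untreated was the highest of each set, but after the exchange the untreated array labelled deletion, at -1.93, is the lowest of its set. For laeA, whose product works in the nucleus with VeA and VelB, the levels were -2.39, -2.88, -3.15 and -2.44, and -2.58, -3.22, -3.26 and -2.65. By the scanner labels laeA was lower with AmB and with CdCl2 than untreated or with Congo Red in both sets. After the exchange this no longer holds for the arrays labelled deletion, where untreated is at -3.26 and CdCl2 at -2.58. The difference between AmB and untreated under the deletion label then turns from -0.20 to 0.29 for veA and from -0.64 to 0.04 for laeA. The fitted AmB values were -0.42 ± 0.30 for veA and -0.56 ± 0.29 for laeA, and neither passed in limma (adjusted p = 0.364 and 0.223). Both turned sign with normexp, to 0.11 and 0.87 (adjusted p = 0.79 and 0.074). The median of all genes was then 0.69, so veA stayed below it.

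NsdD is a GATA factor needed for fruiting bodies. Its levels under the reference label were -4.62, -4.10, -4.14 and -5.16, and under the deletion label -4.49, -3.86, -5.10 and -5.20. Both Congo Red arrays were the lowest, and both AmB arrays the highest. The AmB array labelled reference lay at -4.10, just above the CdCl2 array of that label at -4.14. Their SDs between spots, 0.14 and 0.12, were larger than that gap. The fitted AmB value was 0.57 ± 0.41 (adjusted p = 0.361). It was -0.03 with quantile normalization (limma, adjusted p = 0.972), and 2.01 with normexp, where it passed (adjusted p = 0.00301). On the AmB arrays the normexp values of nsdD, -1.06 and -2.03, lay near those of the vosA probe, -1.14 and -2.46. That probe was below background, so the normexp call does not set nsdD apart from it. SteA, a homeodomain zinc finger protein also needed for fruiting bodies, had levels of -0.83, -0.57, -1.18 and -0.99, and of -0.68, -0.56, -1.25 and -0.91. They varied least among the 7 members detected on all arrays, and the AmB value of 0.19 ± 0.28 did not pass (adjusted p = 0.645).

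VelC, a velvet protein that promotes sexual development, had levels of -4.39, -4.37, -5.45 and -4.21 under the reference label, and of -3.50, -4.06, -4.26 and -3.83 under the deletion label. The array labelled CdCl2 was the lowest of each set, but after the exchange the CdCl2 array labelled deletion, at -3.50, is the highest of its set. The AmB arrays overlapped the others. The fitted AmB value was -0.27 ± 0.35 (adjusted p = 0.601). Its direction was not stable: it was 0.11 after the exchange, and 1.64 with normexp, where it passed as higher (limma, adjusted p = 0.0135). On the AmB arrays the normexp values of velC, -1.08 and -2.10, also lay near those of the vosA probe, -1.14 and -2.46.

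EsdC, a protein of early sexual development, had processed signals of 854, 353, 326 and 1372 under the reference label, and of 1954, 124, 1206 and 1265 under the deletion label. The scaled log2 levels were -0.68, 0.07, -1.86 and 0.09, and 0.43, -1.08, -0.64 and 0.26. The difference between AmB and untreated was 0.75 under the reference label and -1.51 under the deletion label (-0.44 with the table's treatment labels). A test of this dependence set the difference between the labels under AmB, 1.15, against its mean over the other 3 conditions. In those it was -1.11 untreated, -1.22 with CdCl2 and -0.17 with Congo Red. The arrays labelled reference lay on slide 2 and those labelled deletion on slide 1, but in reverse order for Congo Red. The test had no slide term, so a slide difference can enter its value. The result was 1.98 ± 0.51 with an adjusted p of 0.0766 in limma, which did not pass, while 5.31% of all genes did. It passed with normexp (1.57, adjusted p = 0.0401), with quantile normalization (1.99, adjusted p = 0.0484) and without either Congo Red array (2.31, adjusted p = 0.0204), and was 1.98 with an adjusted p of 0.256 after the exchange of labels. For MAT2 the same test gave 1.15 ± 0.33 (adjusted p = 0.0911), and none of the 8 members passed.

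**Figure D2:**
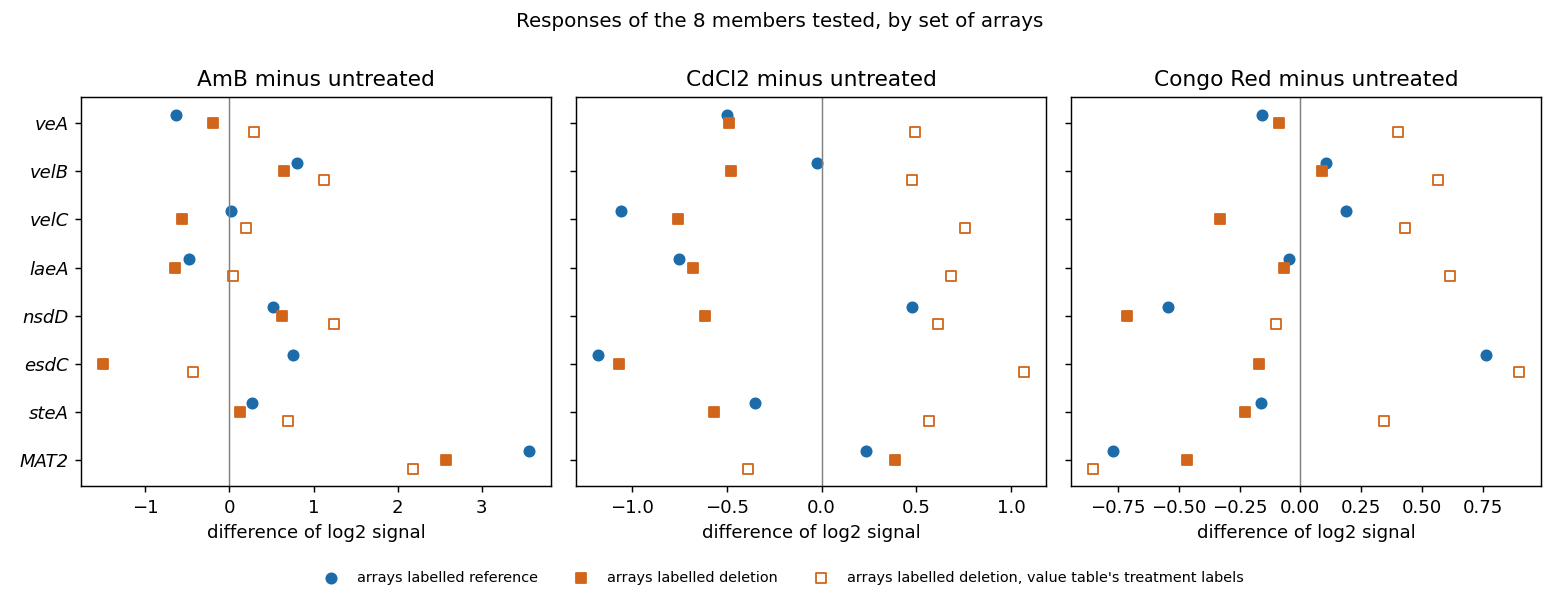
Difference from the untreated array of the same strain label for the 8 members tested, on the log2 scale, in panels for AmB, CdCl2 and Congo Red. Circles are the arrays labelled reference, filled squares those labelled deletion, and open squares the latter with the value table's treatment labels. MAT2 lies between 2.18 and 3.57 for AmB by all of them, and for CdCl2 each open square mirrors its filled one, because the exchange only turns the sign.

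Under CdCl2 no member passed, and neither did any of the 8633 genes (0% called), of which 114 had an unadjusted limma p under 0.05. By value, veA, velB, velC, laeA, esdC and steA were lower than untreated under both labels, which is 6 of the 7 members detected on all arrays, against 32% of such genes. The largest fitted differences were -1.13 ± 0.67 for esdC, -0.91 ± 0.35 for velC and -0.72 ± 0.29 for laeA (adjusted p = 1.00 each). Under the labels in turn they were -1.18 and -1.07 for esdC, -1.06 and -0.76 for velC, and -0.76 and -0.68 for laeA. The count rests on the disputed pair of arrays. The exchange turns the sign of each CdCl2 value of the deletion label, to 1.07, 0.76 and 0.68 for these genes, and 0 of the 7 members were lower under both labels, against 21.4% of such genes. For nsdD the differences were 0.48 and -0.61, and 0.61 for the latter after the exchange.

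Under Congo Red no member passed either, where 2 of 8633 genes did (0.0232%). The largest fitted values were those of nsdD, -0.63 ± 0.41, and MAT2, -0.62 ± 0.40 (adjusted p = 1.00 each). NsdD was the 1 member with both Congo Red arrays below all other 6, against 2.04% of all genes. Its differences from untreated were -0.54 and -0.71, and -0.10 in place of the latter after the exchange. The gap to the next array was 0.06, less than the SD between spots of its Congo Red array labelled deletion, 0.19. For esdC the Congo Red arrays were at 0.09 and 0.26, and the untreated arrays at -0.68 and 0.43, or at -0.68 and -0.64 after the exchange.

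No member passed for the difference between the strain labels. Of all genes 1.86% did, and for 10.7% the arrays of the 2 labels did not overlap, but they overlapped for all 10 members. The largest fitted differences, labelled reference minus labelled deletion, were -0.70 ± 0.32 for MAT2 (adjusted p = 0.497), -0.59 ± 0.28 for velC (adjusted p = 0.517) and 0.38 ± 0.25 for veA (adjusted p = 0.677), all by limma. MAT2 passed when an AmB array or both were left out (-0.88, adjusted p = 0.0317). VelC was lower on the array labelled reference in all 4 conditions, with differences of -0.89 untreated, -0.31 with AmB, -1.19 with CdCl2 and -0.38 with Congo Red. VeA was higher there in all 4, by 0.49, 0.04, 0.48 and 0.42, and so was laeA, by 0.19, 0.34, 0.11 and 0.21. The share of all genes with the same direction in all 4 conditions was not counted. In every condition the 2 labels lay on different slides, so these differences and the overlap counts include any slide difference. Only under Congo Red was the slide order reversed. The fitted label differences, which allow for slide, therefore lean on the Congo Red arrays more than on those of any other condition. With the table's treatment labels, the untreated and CdCl2 differences of veA were 0.98 and -0.01. Those of velC were then -0.13 and -1.95, and those of laeA 0.87 and -0.57.

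**Figure D3:**
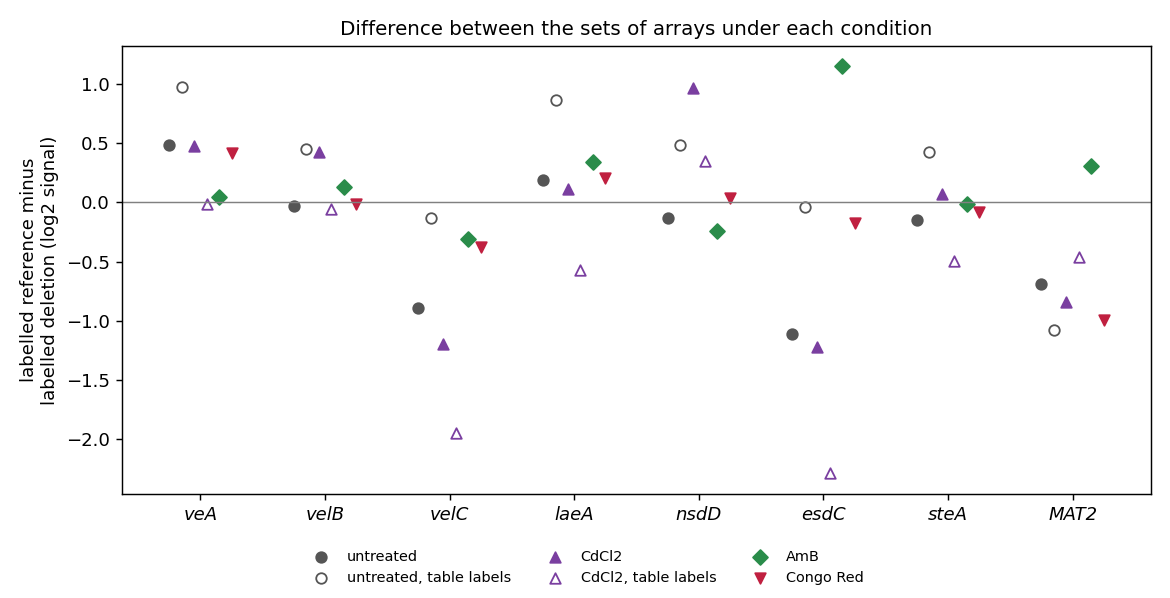
Difference between the strain labels (labelled reference minus labelled deletion, log2 scale) for each member tested, under each condition. Open circles and triangles are the untreated and CdCl2 differences with the value table's treatment labels. The labels lay on different slides in every condition, so each point includes any slide difference. The esdC difference is 1.15 under AmB and -1.11 in untreated cultures, and all velC points are below 0.

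On all 8 arrays vosA and MAT1 were not well above background. The vosA probe had processed signals of 1.81 to 3.34 and the MAT1 probe, for the alpha-domain mating-type protein, of 2.89 to 10.5, with 0 spots above it. Their scaled values were highest on the AmB arrays, where the lowest signal counted as above background was also highest, at -5.67 and -5.58 against -7.96 to -7.32 on the others.

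The genes nearest in pattern were sought for the 3 members with the widest range among those detected on all arrays, over the 8 arrays and among 682 annotated genes detected on all of them. The measure was the root mean square difference of the centred log2 values. For esdC they were yvc1 (AN3155), named for a vacuolar cation channel of yeast, at 0.44, medA (AN6230), a modifier of conidiophore development, at 0.49, and pmcA (AN1189), a calcium pump gene, at 0.51, where the median gene was at 0.88. For velC they were dspD (AN4544) at 0.26, ams1 (AN2936), an alpha-mannosidase gene, at 0.29, and hexA (AN4695), a gene of the septal Woronin body, at 0.33 (median 0.70). For nsdD they were glr1 (AN0932), a glutathione reductase gene, at 0.21, tktA (AN0688), a transketolase gene, at 0.25, and dbp5 (AN7659), an RNA helicase gene, at 0.26 (median 0.68). The distances of esdC to its nearest genes were thus larger than those of nsdD and velC.

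**Figure D4:**
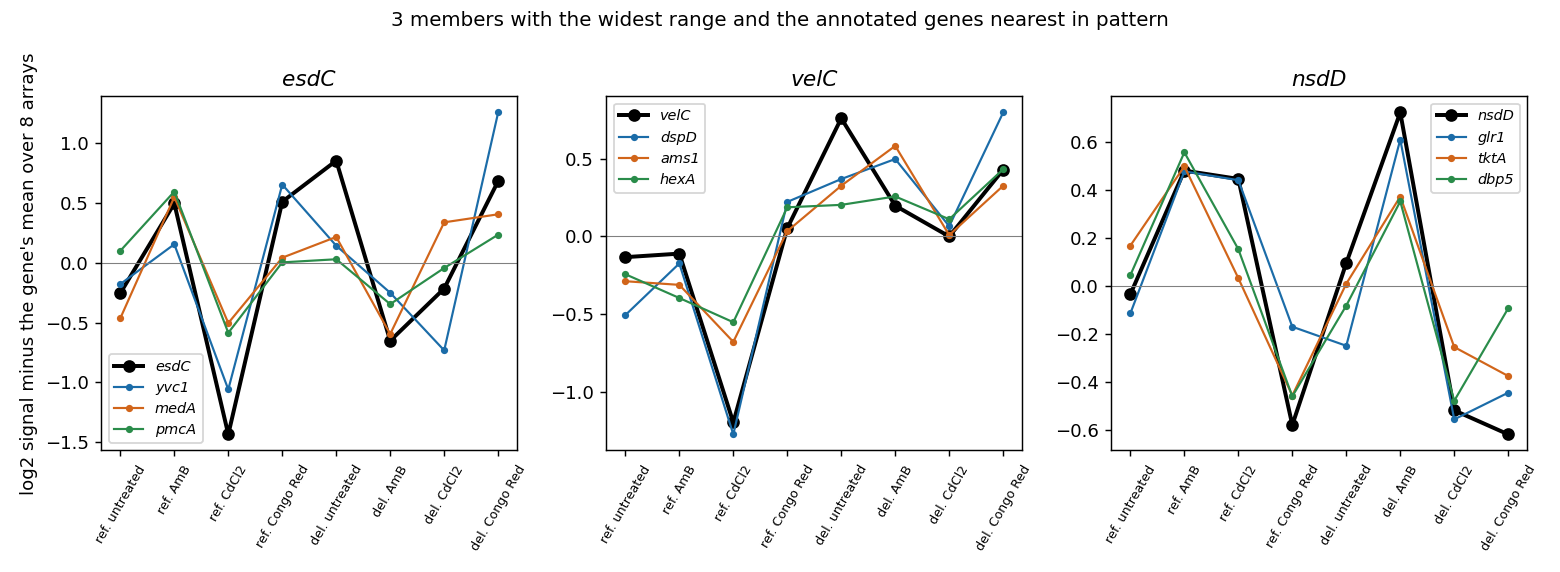
Centred log2 signal (vertical axis, signal minus the gene's mean over the 8 arrays) on each array (horizontal axis) for esdC, velC and nsdD, in black, and for the 3 annotated genes nearest to each, in colour. The esdC line spans from -1.43 on the CdCl2 array labelled reference to 0.86 on the untreated array labelled deletion, wider than those of medA and pmcA.

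Of 34 other genes of sexual development in 6 lists, 32 were tested. For AmB 4 rose, 3 fell and 25 did not pass, with a median of 0.12 against -0.01 over all genes and -0.04 over the 8 members. Over all genes 8.64% rose and 3.15% fell. With normexp 13 of the 32 rose and 2 fell. Quantile normalization gave 2 that rose and 3 that fell, and the authors' values gave 3 and 1. The calls also rested on single arrays: without the untreated array labelled reference 0 of the 32 passed, without either CdCl2 array or the untreated array labelled deletion 1 rose and 0 fell, and with the exchanged treatment labels 5 rose and 0 fell. None of the 32 passed for CdCl2, Congo Red or the strain labels, where 114, 262 and 1118 of all genes had an unadjusted limma p under 0.05 and 0, 2 and 161 passed. Light sensors and partners of the velvet complex had 0 of 5 tested genes called for AmB. The largest value there was 1.75 ± 0.42 for AN0387 (adjusted p = 0.0614), and kapA (AN2142), the importin alpha gene whose product carries VeA into the nucleus, was at -0.51 ± 0.30. The blue light receptor gene lreA (AN3435) was above background on 1 array and was not tested.

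In the pheromone and kinase module, 1 of 11 genes rose and 1 fell with AmB. The gene gprD (AN3387), for a G-protein-coupled receptor that restrains sexual development, rose by 2.08 ± 0.40 (adjusted p = 0.0408), by 1.98 and 2.18 under the labels (2.34 for the latter after the exchange). The gene mpkB (AN3719), for the MAP kinase at the end of the pheromone module, was not well above background on the AmB arrays and was at least 3.06-fold lower than untreated (adjusted p = 0.034), but with normexp its value was 1.44 and passed as higher (adjusted p = 0.0341). The 3 subunit genes of the heterotrimeric G protein, gpaA, sfaD and gpgA, were at -0.85 ± 0.32, -0.89 ± 0.29 and -1.28 ± 0.37 and did not pass (limma, lowest adjusted p = 0.0841). The pheromone precursor gene ppgA (AN5791) differed from untreated by 2.61 under the reference label and by -0.33 under the deletion label, or -0.18 after the exchange (test of the dependence 2.47 ± 0.55, adjusted p = 0.0633).

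Among 5 other regulators of sexual development, AN5170 rose by 2.05 ± 0.37 (adjusted p = 0.0372). This call was lost with quantile normalization (1.09, adjusted p = 0.186) and in the value table (0.39, adjusted p = 0.309). The gene imeB (AN6243), the gene of a protein kinase that restrains sexual development in the light, fell by 1.58 ± 0.29 (adjusted p = 0.0391), though it was at 0.92 with normexp (adjusted p = 0.0689). None of the 5 genes of the COP9 signalosome passed, with values of -0.85 to 0.41. Of the 3 genes listed as psi factor oxygenases, AN5028 fell by 1.43 ± 0.28 with AmB (adjusted p = 0.0434). After the exchange mpkB, imeB and AN5028 no longer passed (adjusted p = 0.0632, 0.0875 and 0.0988). In the same list AN1967 was at 2.70 ± 0.32 with Congo Red (adjusted p = 0.233), at 1.91 and 3.49 under the labels (3.52 for the latter after the exchange). Of 3 fruiting body genes tested, AN7388 rose by 3.36 ± 0.43 (adjusted p = 0.0225) and AN5457 by 1.48 ± 0.30 (adjusted p = 0.045), all by limma. AN7388 was above background on 5 arrays, and not on the untreated array labelled reference. Its difference of 4.07 under that label thus starts from a signal below background. Under the deletion label it was 2.64, or 4.01 after the exchange.

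**Figure D5:**
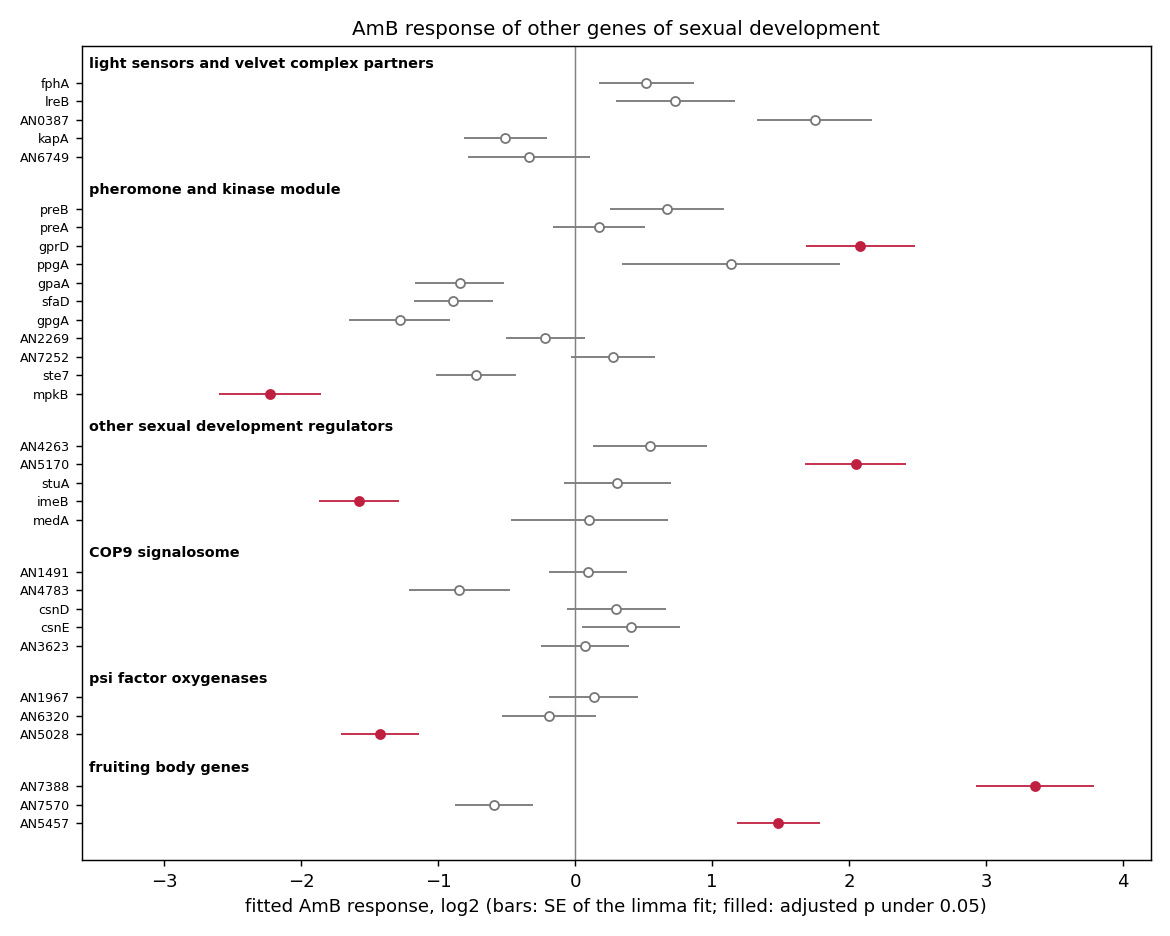
Fitted AmB response on the log2 scale (horizontal axis, bars are the SE of the limma fit) of 32 other genes of sexual development, grouped by list. Filled symbols passed at an adjusted p of 0.05: gprD, AN5170, AN7388 and AN5457 were higher, and mpkB, imeB and AN5028 lower. The mpkB point is a fitted value below background on the AmB arrays, and mpkB and imeB lie above 0 with normexp.

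Markers of other cell types were present in these mycelial samples. Of 7 conidiophore and conidium markers, 4 to 7 were above background on an array. Their summed signal, as a multiple of the 75th percentile of the array, was 2.36 to 4.01 under the reference label and 0.56 to 1.18 under the deletion label, and rodA (AN8803), the gene of the conidial rodlet hydrophobin, differed by 3.31 ± 0.45 (limma, adjusted p = 0.0463). Most of that sum was rodA under the reference label, but not on the AmB, CdCl2 and Congo Red arrays labelled deletion. Without rodA the other 6 summed to 0.27 to 0.76 under the reference label and 0.33 to 0.91 under the deletion label. By fitted value rodA, brlA and dewA were higher under the reference label and abaA, wetA, yA and pksP lower, with a median of -0.27 over the 7. For AmB 0 of the 7 passed, with a median of 0.60. For strain dependence of AmB 1 passed, abaA, at -2.19 ± 0.36 (limma, adjusted p = 0.0384), while 5.31% of all genes did. Its AmB differences were 1.43 under the reference label and 3.58 under the deletion label (3.59 for the latter after the exchange). That test had no slide term, and with normexp the abaA value turned to 0.44. Of 2 markers of Hülle cells and fruiting bodies, AN7349 was above background on 1 array. AN7388 was above it on 5, and the summed signal of the 2 was 0.11 and 0.14 on the AmB arrays against 0.01 to 0.04 on the others. AN7349 was not above background on the AmB arrays. MAT2 was also highest on the AmB arrays, but the sum did not follow it elsewhere. The sum was 0.01 on the CdCl2 array labelled deletion, where MAT2 was at -6.15, its highest without AmB. It was 0.04 on the untreated array labelled deletion. The part of these cells in the member values was not tested, and fewer cells of a type and less RNA per cell cannot be told apart.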

How the data were processed

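Single-colour (Cy3) Agilent arrays were used, 1 per strain label and condition. The submitters' processing notes name Agilent Feature Extraction 12.0.3.1 for the scanner files. Per the file headers these give each of a probe's 4 spots a processed signal, which is an intensity after background subtraction, not on a log scale. The authors also deposited a value table on a log2 scale, with a column for each array. Its scale and direction were read from the match to the scanner signals (column medians 9.24 to 9.26), and its normalization and centring are not given in the sources used here.

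Control spots and spots with a feature outlier flag were left out, log2 processed signals were averaged over spots and scaled to the array's 75th percentile. A probe counted as above background where at least 50% of its spots were well above it. Genes above background on at least 2 arrays were tested, 8633 of 10550. Symbols come from the RefSeq table of assembly ASM1142v1, where 9697 probes matched and 776 had a symbol. The tests used limma 3.58.1 in R 4.3.3 with terms for strain label, treatment and slide and 2 residual degrees of freedom, and Benjamini-Hochberg adjustment at 0.05. The spread is therefore the departure from additivity between the labels, not that between cultures, and the Congo Red pair adds nothing to it. Strain dependence terms were fitted without the slide, whose identity was read from the scanner files' names. The Congo Red pair had the labels on the slides in reverse order, so a slide difference can enter these terms. Folds against a group not above background are bounds: the bright group's mean against, per array, the higher of the probe's own signal and the lowest signal above background. The fits were tested on simulated data. With so few degrees of freedom, a gene that did not pass is not shown to be unchanged.

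The members and lists were chosen with earlier results of these data known. All members were named, list genes that passed or had the largest value of their list, and the 3 genes nearest to each of 3 members. Alternatives changed the background correction (normexp on the median signal, since the scanner files used here hold no mean signal), normalization, filter, slide term, source of the values, arrays and labels.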

Additional observations from a re-analysis of the deposited data

Results flagged for a closer look

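For 3 member responses the arrays of the 2 strain labels moved in opposite directions, by the log2 difference from the untreated array of the same label. Each rests on 1 array per combination. The CdCl2 response of nsdD was 0.48 under the reference label and -0.61 under the deletion label. The test of the difference between labels under CdCl2 against the other 3 conditions gave 1.07 ± 0.46 (limma, adjusted p = 1.00) and did not pass; nor did any of the 8633 genes, of which 154 had an unadjusted p under 0.05. With the value table's treatment labels, which turn the sign of the second, they were 0.48 and 0.61.

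The AmB response of esdC was 0.75 under the reference label and -1.51 under the deletion label, and the directions stayed opposite, at 0.75 and -0.44, with the table's treatment labels. The test is that given above (adjusted p = 0.0766). The Congo Red response of esdC was 0.76 and -0.17. With the table's labels both values were above 0, at 0.76 and 0.90. The Congo Red and untreated arrays of a label lay on different slides, in opposite order under the 2 labels, so slide and strain dependence cannot be told apart there and the difference was not tested.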

How the results depend on the processing

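No paired analysis was possible because each combination of strain label and condition has 1 array, so replicate numbers pair nothing beyond the strain label and slide terms already fitted. MAT2 stayed higher with AmB under all 17 alternatives that gave it a value (0.93 to 3.60) and passed in 15; velB stayed higher in 18 of 18 and passed in 2. Genes called for AmB numbered 1018, and 4000 with normexp (3535 higher, 465 lower, against 746 and 272), 530 higher and 480 lower with quantile normalization, 469 and 462 in the value table, 3319 with no filter and 1992 with no slide term. For Congo Red 2 were called, 6 with normexp, 84 without the AmB arrays, and 0 with quantile normalization, with only probes above background on all arrays, with no slide term and in the value table. For the strain labels 161 were called, 84 with that filter, 530 with no slide term, 107 in the value table and 1185 without the AmB arrays. For strain dependence of AmB 458 were called, 1196 with normexp, 1413 with quantile normalization, 299 with no filter and 1013 in the value table. Leaving out 1 array at a time gave 138 to 4425 for AmB, 0 to 84 for Congo Red, 129 to 1185 for the strain labels and 0 to 1045 for strain dependence of AmB; a lone array of a condition is then fitted through the other conditions.

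The last 3 alternatives were chosen after seeing the data. Exchanging the disputed labels gave 0 for Congo Red and 190 for strain dependence of AmB; leaving out those 2 arrays gave 441 for AmB, 0 for Congo Red and 62 for the strain labels; pooling untreated and CdCl2 arrays gave 2992, 17 and 364. The value table's strain labels are opposite to those of the scanner files, so the labels alone can turn the signs listed next. Reversed values there were veA -0.36, velC 0.48, MAT2 0.16 and rodA -3.08 between strain labels. For strain dependence they were esdC -1.76, MAT2 -0.18 and ppgA -1.88 with AmB, nsdD -0.45 with CdCl2 and abaA (AN0422) 2.14 with AmB against -2.19. That table also turned esdC to 0.12 with AmB and 0.0073 with CdCl2. With normexp the AmB values of veA, velC and laeA turned to 0.11, 1.64 and 0.87, those of mpkB and imeB to 1.44 and 0.92, MAT2 to 0.081 between strain labels and 0.14 with Congo Red, and abaA to 0.44. The median AmB value of all genes was then 0.69. The vosA probe, below background on all arrays, also lay higher with AmB by normexp. It was at -1.14 against -4.57 untreated under the reference label, and at -2.46 against -4.63 under the deletion label. With quantile normalization nsdD was -0.026 with AmB. The AmB values of velC and esdC (-0.38) had no stable direction: 0.11 and 0.16 after the exchange, 0.0058 and 0.42 without the 2 disputed arrays, 0.19 and 0.18 with the pooled baseline, and -0.64 to 0.098 and -1.54 to 0.78 leaving out 1 array at a time. EsdC passed as lower without the AmB array labelled reference (adjusted p = 0.0165). AN0387 passed with AmB after the exchange (1.85, adjusted p = 0.044). The cause was not tested for any of these. Dim genes such as MAT2 are limited by signal over background.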
